A study of Mus musculus with 91 samples.

Results

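Homeobox and positional identity genes were followed across single cells sorted from mouse bone marrow. They were chosen by symbol from Shox2 and the Hox, Dlx, Msx, Prrx, Pbx, Meis, Irx, Pitx, Lhx, Tbx and Twist families and the family of Six2, and needed at least 1 count over the 91 cells. This gave 68 of the 16580 genes in the deposited table, of which 32 are Hox genes and 36 are others. The rule itself uses symbols and counts and no difference between groups. The name holds for most of them: a homeobox of 60 codons was found in the coding sequence of 49, among them all 32 Hox genes. The other 19 included Irx, Lhx, Meis and Pbx genes, which encode homeodomain proteins but did not match the search. It asked for a conserved stretch of amino acids and for a leucine at a set distance before it. The rest were 7 Tbx and 2 Twist genes, which encode T-box and basic helix-loop-helix proteins. The symbol rule leaves out Dlx5, which is given further below for comparison only. Other genes of these families outside the 68, such as Tbx4, Hoxd10 and Hoxd13, were not analysed here.

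Hox genes lie in 4 clusters (A to D) and are numbered by paralogue group. In the embryo, low numbers are used towards the head and high numbers towards the tail and the tips of the limbs, and many adult connective tissue and skeletal cells keep part of this pattern. Meis and Pbx proteins bind DNA together with Hox proteins. Pitx1 is known for the hindlimb and Tbx5 for the forelimb, Shox2 for the upper segment of both limbs, and Prrx1, Prrx2, Msx, Dlx and Twist genes for limb, face and skeletal mesenchyme. The bones that were crushed are not named in the sources used here.

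The homeoboxes of 4 members on which the results turn are shown first, so that the degree of kinship of these genes can be seen. Each is 180 bases, 5′ to 3′ on the coding strand, from the GENCODE vM21 models on GRCm38 (mm10), and the 12 capitals mark the codons of the conserved stretch of the third helix, which contacts DNA.
Hoxa10: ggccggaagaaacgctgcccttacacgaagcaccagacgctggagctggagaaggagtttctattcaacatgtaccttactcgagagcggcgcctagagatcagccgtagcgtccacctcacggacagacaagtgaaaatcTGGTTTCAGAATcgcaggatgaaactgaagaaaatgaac
Shox2: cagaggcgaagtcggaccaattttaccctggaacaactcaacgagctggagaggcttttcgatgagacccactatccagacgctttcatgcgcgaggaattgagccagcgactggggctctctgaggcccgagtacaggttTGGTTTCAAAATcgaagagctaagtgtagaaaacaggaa
Pitx1: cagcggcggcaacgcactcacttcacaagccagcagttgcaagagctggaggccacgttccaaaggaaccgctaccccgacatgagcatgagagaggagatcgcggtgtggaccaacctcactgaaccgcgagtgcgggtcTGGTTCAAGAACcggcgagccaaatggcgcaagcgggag
Dlx3: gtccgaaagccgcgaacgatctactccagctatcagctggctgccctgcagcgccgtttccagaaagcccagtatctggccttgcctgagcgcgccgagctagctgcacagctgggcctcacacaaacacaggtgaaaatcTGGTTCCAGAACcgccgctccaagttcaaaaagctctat
The homeobox of Hoxa10 lies in 1 coding exon at chr6:52232554-52232733 (minus strand). Those of Shox2 (chr3:66975869-66978323, minus), Pitx1 (chr13:55826570-55828577, minus) and Dlx3 (chr11:95121767-95123456, plus) are joined from 2 coding exons, so these spans include an intron. Pitx1 and Shox2 shared 56.1% of the 180 bases, Dlx3 and Pitx1 52.2%, Dlx3 and Hoxa10 48.3%, and Hoxa10 and Shox2 44.4%. Over all 496 pairs of Hox members the median was 63.3%, with a range from 47.8% to 93.9%.

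Similar or overlapping sequence can move reads between genes. For the 68 members, the median share of 31-base words of the transcripts that also occur in another gene was 1.33%, and it was above 10% for 13. The highest values were 61.2% for Hoxd3 and 49.1% for Hoxd4, whose models overlap each other, 52.7% for Hoxb3, 46.0% for Twist2 and 33.9% for Hoxa11, which overlaps the antisense gene Hoxa11os. Hoxb2 followed at 26.5% and, like Hoxb3, overlaps the antisense gene Hoxb3os. A further gene lies antisense to exons of 22 members, and the library method does not mark strand, so reads in the overlapping bases cannot be told apart from those of that gene. The exon bases shared with other genes were 4.62% for Shox2, 4.49% for Irx3 and 4.38% for Dlx6, but 34.98% for Hoxa11 and 27.3% for Hoxb2. Hoxa10, Prrx2, Dlx3 and Msx1 were free of both: 0% of their words occurred elsewhere.

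All cells came from C57BL/6 mice and shared 1 sort: positive for a dye that excludes debris and for the adhesion molecule VCAM1, and negative for the blood markers CD45, Ter119, CD41 and CD71. The marrow was obtained by crushing bones, and cells were processed as single wells with Smart-seq2, which reads full-length cDNA without molecular identifiers. The groups were 39 VCAM1+CD61+ cells (plates of 17 and 22), 40 VCAM1+CD61- cells (plates of 24 and 16) and 9 VCAM1+ cells for which CD61, an integrin chain, was no criterion. Ages, sexes and animals are not named. For 3 more cells the labels disagree on the gate, and these were left out of the comparisons.

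Depth was 507713 to 6702475 counts per cell, with gate medians of 1887610 (CD61+), 2368340 (CD61-) and 4004930 (VCAM1+). Since no animal is named, each gate is 1 sample: no test was run, and all intervals (exact, 95%) cover counting error only, which understates the true error because reads are not independent molecules. Plates were not shared between gates, so effects of plate and gate cannot be told apart. Clustering without the members gave 6 clusters. Clusters 1 (28 cells) and 4 (11 cells) were CAR-like (CAR stands for CXCL12-abundant reticular, a stromal cell of the blood stem cell niche), with 16 of 16 CAR markers counted in at least 50% of their cells. Cluster 2 (16 cells, 13 of them CD61+) was osteolineage-like with 13 of 14 markers of bone-forming cells, and also held 10 of 16 CAR markers. Cluster 5 (11 cells) was osteolineage-like with 10 of 14 but also held 16 of 16 CAR markers. Of the same 14 markers of bone-forming cells, cluster 4 held 8 and cluster 1 held 5. Cluster 3 (13 cells) also held all 16 CAR markers, but none of them was among its 10 leading genes and its median depth was lowest at 1090160. Cluster 6 (9 cells) was mixed, with 7 of 13 endothelial and 5 of 11 fibroblast markers counted in at least 50% of its cells. None of the 11 blood cell markers reached that share, and the blood gene Laptm5 was high in 2 cells.

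Most members were counted in a minority of cells, and cells that held a member often held many copies. A cell had a median of 18 members with a count in the CD61+ gate (range 4 to 33) and 15 in the CD61- gate (2 to 29) and in the VCAM1+ gate (3 to 24). Of the 68, 53 were counted in at least 9 of the 88 cells with a gate or are Pitx1 or Tbx5, and most of these are named below; the other 15 were counted in 1 to 8 cells. The number of members per cell went with the number of genes per cell (Spearman rho 0.66 over 88 cells) and less with total counts (rho 0.37); these points share depth and library, and are descriptions. A cell without a count may still express a gene below what its depth can show. For 6 members, Hoxa13, Hoxb1, Lhx5, Msx2, Six3 and Tbx20, no cell held 5 counts or more, and nothing is read from their differences.

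Per kilobase of exon, the scale on which genes can be compared, Hoxa6 had the highest level over the 88 cells at 29.0 CPM per kilobase, where CPM are counts scaled to a total of 10 to the power of 6. Hoxa7 followed at 27.9, the Hox cofactor gene Meis3 at 26.2, Irx3 at 22.6, Prrx2 at 18.6 and Hoxa10 at 17.5. These ranks come from few cells in part: Hoxa6 was counted in 20 of 88 cells and Prrx2 in 10, whereas Irx3 was counted in 55, Hoxa10 in 50 and Meis3 in 50. Prrx1, which had the widest detection with 68 of 88 cells, had a level of 7.56 CPM per kilobase. On the same scale, Twist1 had 12.96, Hoxb2 12.6, Dlx6 11.99 and Shox2 11.5.

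Members were next compared between the CD61 gates. For the ratio, a gene needed at least 10 counts and a count in at least 5 of the 79 CD61 cells, which 59 of 68 members and 14063 of all genes met; those that did not include Hoxa11, Hoxa13, Hoxc11, Hoxd11, Lhx6, Msx2 and Tbx3. At least 2-fold higher in CD61+ were 12 of 59 (20.3%), against 19.4% of all genes, among them Dlx3, Hoxa2, Hoxa4, Hoxb9, Hoxd3, Hoxd8, Irx5, Pbx2, Prrx2, Six2 and Tbx2. At least 2-fold lower were 12 (20.3%), against 17.3%: Hoxa5, Hoxb6, Hoxc4, Hoxc5, Lhx5, Lhx9, Meis2, Msx1, Pbx3, Six5, Tbx5 and Tbx6. Both CD61+ plates lay above both CD61- plates for 10 members (16.9%), against 20.0% of all genes, and below for 12 (20.3%), against 17.8%. These shares are near the background and are not a result about the members. The median log2 ratio was 0.12 for the members and 0.01 for all genes.

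Single cells carried many of these ratios. Of the 24 members past 2-fold, 22 had a ratio that moved by more than 1.5 times when 1 cell was left out, and 14 fell within 2-fold without some cell. Past 2-fold in the same direction under every alternative, each plate and each cell left out included, were 7: Dlx3, Irx5, Prrx2, Six2 and Tbx2 towards CD61+, and Tbx5 and Tbx6 towards CD61-. Of these, Six2, Tbx5 and Tbx6 rest on few cells: leaving out each cell gave ratios from 3.21 to 13.9, from 0.0339 to 0.424 and from 0.0217 to 0.0971. At the edge of 2-fold stood Hoxa2 (2.02), Hoxb9 (2.01) and Twist2 (log2 -0.99). The same leave-out counts are not given for all genes, so those above are not a result about the members. Members past 2-fold with both plates on the same side were 11.9% higher and 10.2% lower. The shares of all genes were 12.9% and 10.6%.

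**Figure D1:**
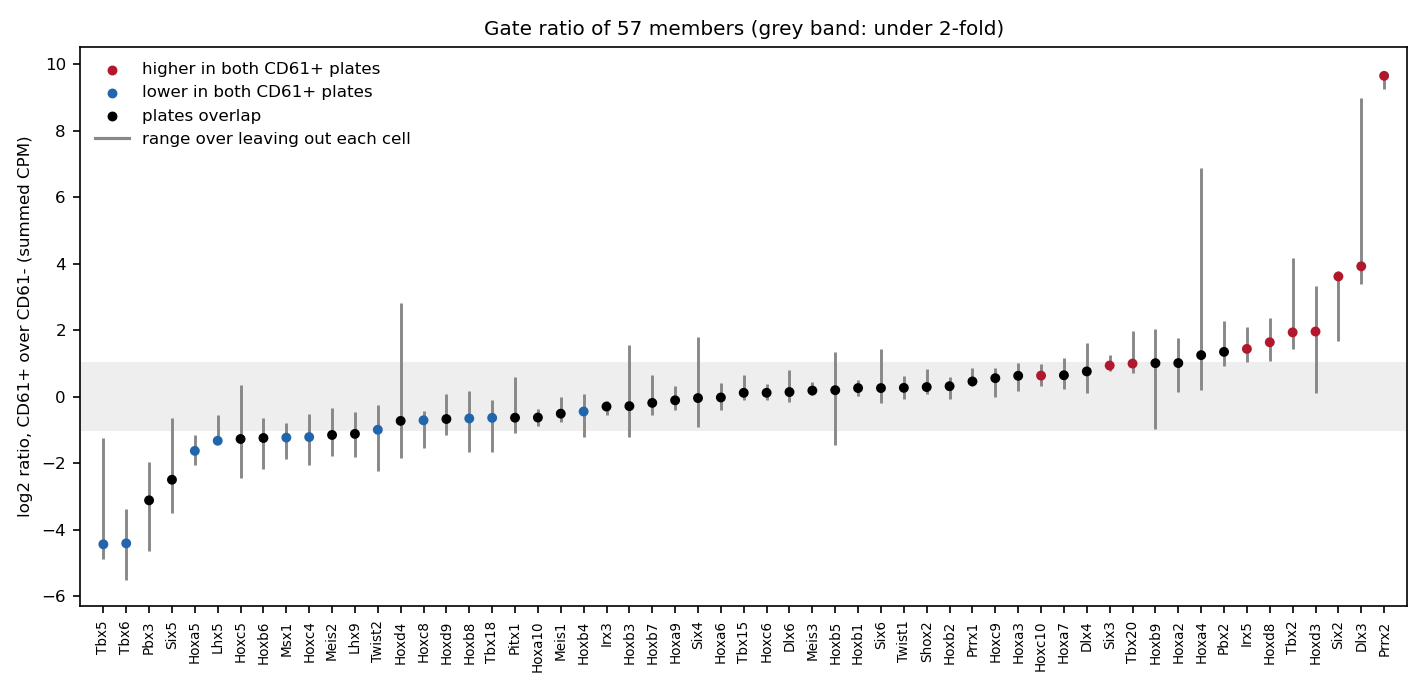
Log2 ratio of summed CPM, CD61+ over CD61- (y axis), of 57 members tested (x axis, in rising order), with the range over leaving out each cell as a line. Red and blue points are members whose CD61+ plates both lie above or below the CD61- plates, the grey band is under 2-fold, and the point of Prrx2 is a lower bound because its CD61- counts are 0; 34 of the 57 points lie within the band.

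The Hox clusters differed in where detection was highest: at Hoxa10, Hoxb2, Hoxc9 and Hoxd9. Each member of groups 11 to 13 was counted in 2 to 4 cells. In the Hoxa cluster, Hoxa10 was counted in 50 of 88 cells (44 with at least 5 counts) and its neighbour Hoxa11 in 4, and Hoxa13 in 3 with 0 cells at 5 counts, which allows a share of up to 3.41%. In the Hoxc cluster, Hoxc9 was counted in 46 cells, Hoxc10 in 23 and Hoxc11 in 4. The Hoxd cluster ran from Hoxd9 in 15 cells to Hoxd11 in 2. In the Hoxb cluster, Hoxb2 was counted in 33 cells, Hoxb4 in 23, Hoxb6 in 21 and Hoxb9 in 18, of which 6 had 5 counts or more. Taking in each cell the highest Hox paralogue group with at least 5 counts, it was group 10 in 44 cells, group 11 in 10, group 9 in 13 and groups 4 to 8 in 14. No Hox gene reached 5 counts in 7 cells.

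**Figure D2:**
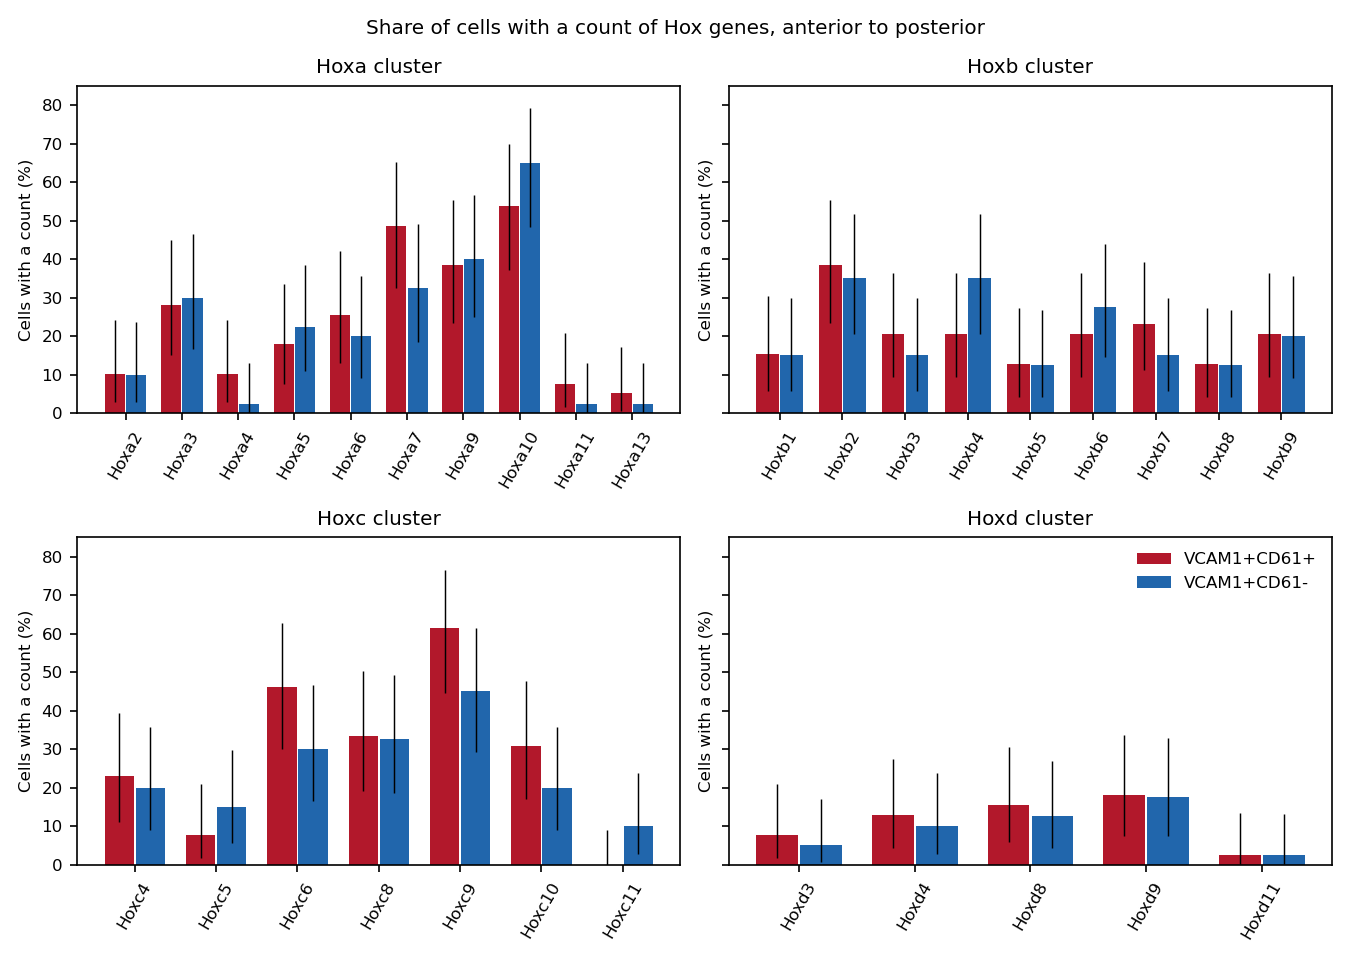
Share of cells with a count of each of 31 Hox members (y axis, %), in 4 panels for the Hoxa, Hoxb, Hoxc and Hoxd clusters, with genes in order from anterior to posterior. Bars stand for the 39 CD61+ cells (red) and the 40 CD61- cells (blue) and lines for exact 95% intervals; the tallest bars are Hoxa10 in CD61- cells (65.0%) and Hoxc9 in CD61+ cells (61.5%), and the intervals of the gates overlap for every gene.

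Anterior Hox genes were represented mostly by Hoxb2, with 49.8 CPM in the CD61+ gate, 40.01 in the CD61- gate and 40.8 in the VCAM1+ gate, from 15, 14 and 4 cells. The values did not separate the plates, with 59.6 and 39.7 CPM in the CD61+ plates and 37.3 and 43.6 in the CD61- plates. Hoxa3 was counted in 25 cells and Hoxb3 in 16. Hoxb1 was counted in 17 cells but never at more than 1.397 CPM.

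Among the central Hox genes, Hoxa6 and Hoxa7 had the highest levels per kilobase. Hoxa7 had 98.7 CPM in the CD61+, 63.1 in the CD61- and 84.9 in the VCAM1+ gate. In the VCAM1+ gate, 1 of the 2 cells with Hoxa7 held 99.4% of the counts. Its plates crossed (145 and 51.0 CPM in CD61+, 99.5 and 14.1 in CD61-), and 20.5% of its 31-base words are shared with the antisense gene Hoxaas3 or others. Hoxa5 had 7.75 CPM in the CD61+ gate and 24.0 in the CD61- gate, a ratio of 3.09 (2.82 to 3.39) in favour of CD61-. Its CD61+ plates, at 7.17 and 8.34 CPM, both lay below the CD61- plates at 15.3 and 35.7, although the cells with a count were 7 and 9, and without the second CD61- plate the log2 ratio was -0.98, within 2-fold. Hoxc4 had 5.99 and 6.27 CPM in the CD61+ plates and 15.95 and 11.9 in the CD61- plates; its ratio of 0.431 ran from 0.240 to 0.696 when each cell was left out. Hoxc6, counted in 18 CD61+ and 12 CD61- cells, had 14.1 and 12.98 CPM. In all, 4 of the 15 central Hox genes tested for the ratio were at least 2-fold lower in the CD61+ gate (Hoxa5, Hoxb6, Hoxc4, Hoxc5) and 2 at least 2-fold higher (Hoxa4, Hoxd8), or 26.7% and 13.3% against 17.3% and 19.4% of all genes, with a median log2 ratio of -0.45 against 0.01 over all genes. The calls of Hoxa4, Hoxb6 and Hoxc5 turned when 1 plate was left out: the log2 ratio was -3.66 for Hoxa4 without the first CD61+ plate, and 1.12 for Hoxb6 and 0.36 for Hoxc5 without the second CD61- plate.

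Hoxa10 and Hoxc9, both posterior, were counted in the most cells of the Hox genes. Hoxa10 had 46.4 CPM in the CD61+ gate (21 cells), 71.6 in the CD61- gate (26 cells) and 43.7 in the VCAM1+ gate (3 cells). In the plates it was 31.5 and 61.8 in CD61+ and 84.7 and 54.0 in CD61-, so the gates overlapped. Hoxa9 had 49.7, 53.5 and 15.0 CPM in the same order of gates. In the VCAM1+ gate, 1 cell held 99.2% of the Hoxa9 counts. Hoxc9 had 24.0 CPM from 24 CD61+ cells and 16.3 from 18 CD61- cells, with crossing plates (31.05 and 16.8 against 12.99 and 20.8). Hoxc10 did not cross: its CD61+ plates stood at 22.2 and 22.1 CPM and its CD61- plates at 18.6 and 8.36, with a ratio of 1.55 (1.44 to 1.67). In the second CD61- plate, 1 of 16 cells held all of its counts, and leaving out each cell gave ratios from 1.24 to 1.99. Of the 6 posterior genes tested for the ratio, 1 (Hoxb9) was at least 2-fold higher in the CD61+ gate, and 75.3% of its CD61+ counts came from 1 cell; its ratio of 2.01 ran from 0.511 to 4.10 when each cell was left out.

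The limb type factors were rare and were counted together in 1 cell. Pitx1 was counted in 13 of 88 cells, with 11.98 CPM in the CD61+ gate (5 cells), 18.6 in the CD61- gate (7 cells) and 0.863 in the VCAM1+ gate (1 cell). Where it was found it was mostly high, with a median of 97.1 CPM over the 13 cells and a maximum of 308. Tbx5 was counted in 14 cells at a median of 1.19 CPM, and 1 CD61- cell with 256 counts (81.6 CPM) held 89.5% of that gate's counts. The 1 cell with both held 994 counts of Pitx1 and 3 of Tbx5. With at least 5 counts of each required, 12 cells held Pitx1, 4 held Tbx5 and 0 held both. The product of their shares at 1 count comes to 2.07 cells with both, so few cells bear on this.

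Pitx1 was mostly found in cells that also held Shox2: 11 of the 13 Pitx1 cells (84.6%) had a count of Shox2, against 27 of the 75 cells without Pitx1 (36.0%). At 5 counts of each it was 9 of 12 against 24 of 76. By gate it was 4 of 5 Pitx1 cells against 17 of 34 others in CD61+ and 6 of 7 against 8 of 33 in CD61- (4 of 6 against 8 of 34 at 5 counts), with few Pitx1 cells in each. In the same 13 cells, Hoxa10 was counted in 9 (69.2%, against 54.7% of the others) and Hoxb2 in 1 against 32 of 75. Of the 6 posterior Hox genes, 2 had a higher share in Pitx1 cells and 4 a lower one, among them Hoxc9 (38.5% against 54.7%). Of the 14 central genes, 1 was higher and 13 were lower, and all 4 anterior genes were lower. Single genes named here were picked after their values were seen, so they carry no test. Hoxb3, Hoxb5, Hoxb6, Hoxb7, Hoxb8, Hoxc4, Hoxd4, Hoxd8 and Hoxd9 were each in 0 of the 13, which allows a share of up to 23.1%. In the other cells their shares ran from 14.7% (Hoxd4) to 28% (Hoxb6), so for Hoxd4, Hoxb3, Hoxb5, Hoxb7, Hoxb8, Hoxd8 and Hoxd9 the limit lies above the share in the others. Pitx1 cells held a median of 4 Hox genes against 7, at a median depth of 1737730 against 2072050; the part of depth in this was not tested.

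Shox2, a homeobox gene of the upper limb segment, was counted in 38 of 88 cells and was compared with the Hox genes of the same cells. It had 49.7 CPM in the CD61+ gate (21 cells), 40.6 in the CD61- gate (14 cells) and 4.98 in the VCAM1+ gate (3 cells). The plates overlapped, at 62.6 and 36.3 CPM in CD61+ and 39.3 and 42.4 in CD61-. Of the 6 posterior Hox genes counted in at least 9 cells, 4 had a higher share in cells with Shox2 and 2 a lower one. Hoxc10 was counted in 16 of 38 (42.1%) against 7 of 50 (14%), and Hoxa10 in 26 of 38 (68.4%) against 24 of 50 (48.0%). Hoxc9 was level at 52.6% against 52%, while Hoxd9 (10.5% against 22%) and Hoxb9 (18.4% against 22%) were lower. Of the 14 central genes, 10 had a lower share and 4 a higher one, among them Hoxa5 (28.9% against 18%) and Hoxa6 (26.3% against 20%). Hoxb4 was counted in 4 of 38 (10.5%) against 19 of 50 (38%), Hoxb6 in 4 against 17 and Hoxc8 in 7 against 21. At 5 counts the contrast in Hoxb4 was 1 of 33 against 15 of 55, and in Hoxc4 1 of 33 against 13 of 55. These pairs are the extremes of 1378 pairs and were picked after their values were seen, so they carry no test.

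As groups, at least 1 of the 10 posterior genes of all clusters was counted in 35 of 38 Shox2 cells (92.1%) and 41 of 50 others (82%), and at least 1 of the 15 central genes in 30 of 38 (78.9%) and 45 of 50 (90%). The narrower sets that follow were chosen after the values of single genes were seen, and leave out Hoxb9 and the Hoxd genes from the posterior set and the Hoxa and Hoxd genes from the central set. At least 1 of the 7 posterior HoxA and HoxC genes was counted in 35 of 38 Shox2 cells (92.1%, interval 78.6% to 98.3%) and in 36 of 50 others (72.0%, 57.5% to 83.8%). At least 1 of the 9 central HoxB and HoxC genes was counted in 27 of 38 (71.1%, 54.1% to 84.6%) against 42 of 50 (84.0%, 70.9% to 92.8%), so both pairs of intervals overlap. In the CD61+ gate the central set was in 14 of 21 Shox2 cells and 17 of 18 others, and in the CD61- gate in 11 of 14 and 21 of 26. Single plates gave the same direction in 3 of 4: 5 of 8 against 9 of 9, 9 of 13 against 8 of 9 and 7 of 9 against 13 of 15. The second CD61- plate gave 4 of 5 against 8 of 11. Within the CAR-like clusters 1 and 4 and cluster 3 the counts were 15 of 23 against 25 of 29. Of the 38 Shox2 cells, 14 lay in cluster 2, where the direction was the other way (11 of 14 against 1 of 2). Median depth was close, at 1991150 with and 2056680 without Shox2, but the median number of genes per cell was 5931 and 5349. The part of this in the shares was not tested. The median number of Hox genes per cell was 6.5 with and 7 without Shox2. Shox2 was absent from all 9 cells of cluster 6.

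**Figure D3:**
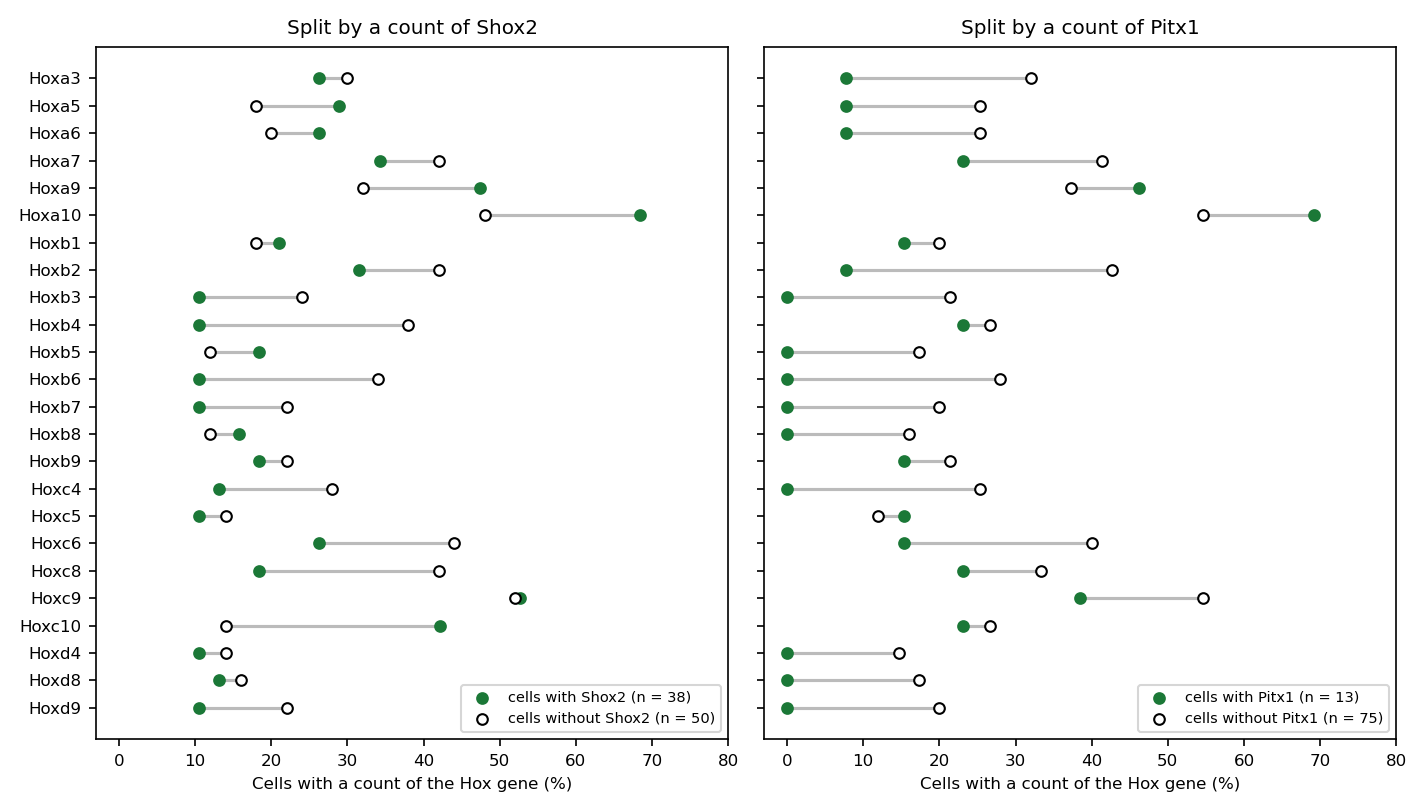
Share of cells with a count of each of 24 Hox genes (x axis, %), for cells with (filled) and without (open) a count of Shox2 (left, 38 and 50 cells) or Pitx1 (right, 13 and 75 cells). Filled points lie to the right for Hoxa10 in both panels, and to the left for Hoxb4 in the left panel (10.5% against 38%) and for Hoxb2 in the right panel (7.69% against 42.7%). In the right panel they also lie to the left for 4 of the 6 posterior genes.

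Joint detection was also summed over all pairs. The number of cells with both genes of a pair, divided by the number expected from the product of their shares, had a median of 1.397 over 69 pairs from the same cluster, 1.197 over 207 pairs from different clusters, 1.09 over 696 pairs of a Hox and another member and 1.08 over 406 pairs of other members. At 5 counts the first 2 medians were 1.34 and 1.22. By cluster the medians were 1.59 for Hoxb (36 pairs), 1.25 for Hoxc (15), 1.14 for Hoxa (15) and 2.13 for Hoxd, which has 3 pairs. At 5 counts the Hoxa median was 1.02, below that of pairs from different clusters. All pairs share the cells and their differing depth and number of genes; the part of these in the values was not tested. Single examples are Hoxa9 with Hoxa10, where 27 of the 34 Hoxa9 cells also held Hoxa10, and Hoxb2 with Hoxb7, where 12 of the 15 Hoxb7 cells held Hoxb2. The exons of Hoxa9 and Hoxa10 do not overlap, and 1.02% and 0% of their 31-base words occur in another gene. Of the 1378 pairs, 36 were never found together.

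The mesenchymal homeobox and Twist genes included both the most widespread member and the most one-sided. Prrx1, a limb mesenchyme factor, was counted in 34 of 39 CD61+, 29 of 40 CD61- and 5 of 9 VCAM1+ cells, with 90.7, 66.0 and 115 CPM. In the VCAM1+ gate, 1 cell held 88.9% of the Prrx1 counts. Its plates crossed, at 77.4 and 105 CPM in CD61+ and 85.3 and 39.97 in CD61-. Its relative Prrx2 was counted in 6 CD61+ cells and 4 of the 9 VCAM1+ cells, but in 0 of the 40 CD61- cells. The level was 25.5 and 27.1 CPM in the CD61+ plates, 0 and 0 in the CD61- plates and 156 in the VCAM1+ gate. Against a floor of 3 counts over the CD61- gate, the CD61+ level was 806-fold higher. The exact interval of the ratio began at 655, and leaving out each cell gave 617 to 865 against that floor. A count of 0 in 40 cells still allows a share of up to 7.50% by the limit of 3 counts, and of up to 8.81% by the exact interval, and the CD61+ share was 15.4% with an interval from 5.86% to 30.5%, which reaches below both. The 10 cells with Prrx2 held 8.49 to 988 CPM and were spread over all 6 clusters.

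Dlx3, a homeobox gene known for teeth, skin and bone-forming cells, had most of its cells in 1 gate and 1 cluster. It was counted in 10 CD61+ cells, 1 CD61- cell and 1 VCAM1+ cell. The CD61+ plates had 19.03 and 15.3 CPM and the CD61- plates 1.97 and 0, and the gates 17.2 and 1.13, a ratio of 15.2 (12.4 to 18.7). The single CD61- cell with Dlx3 held all 104 counts of its gate: without it CD61+ was at least 512-fold higher against the floor of 3 counts, and leaving out any other cell gave at least 10.5. By cluster, 11 of the 12 Dlx3 cells lay in the osteolineage-like cluster 2, where 11 of 16 cells (68.8%) held it, and the other in cluster 3. Of the 12, 11 also held Shox2.

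Dlx4, which lies beside Dlx3 on chromosome 11, was counted in 6 CD61+ and 5 CD61- cells with 7.38 and 4.35 CPM. Dlx6 was counted in 50 cells, but in 29 of them with fewer than 5 counts; it had 36.0 CPM in CD61+ and 32.7 in CD61-. Msx1 had 6.30 and 17.1 CPM in the CD61+ plates and 25.2 and 29.8 in the CD61- plates, a ratio of 2.35 (2.17 to 2.54) in favour of CD61- that rests on 6 and 7 cells. Without the first CD61+ plate the log2 ratio was -0.67, within 2-fold. Twist1 had 16.9 and 14.1 CPM from 18 and 13 cells, and Twist2 11.6 and 23.1 from 4 and 5 cells. Msx2 had 1 count in 1 cell.

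**Figure D4:**
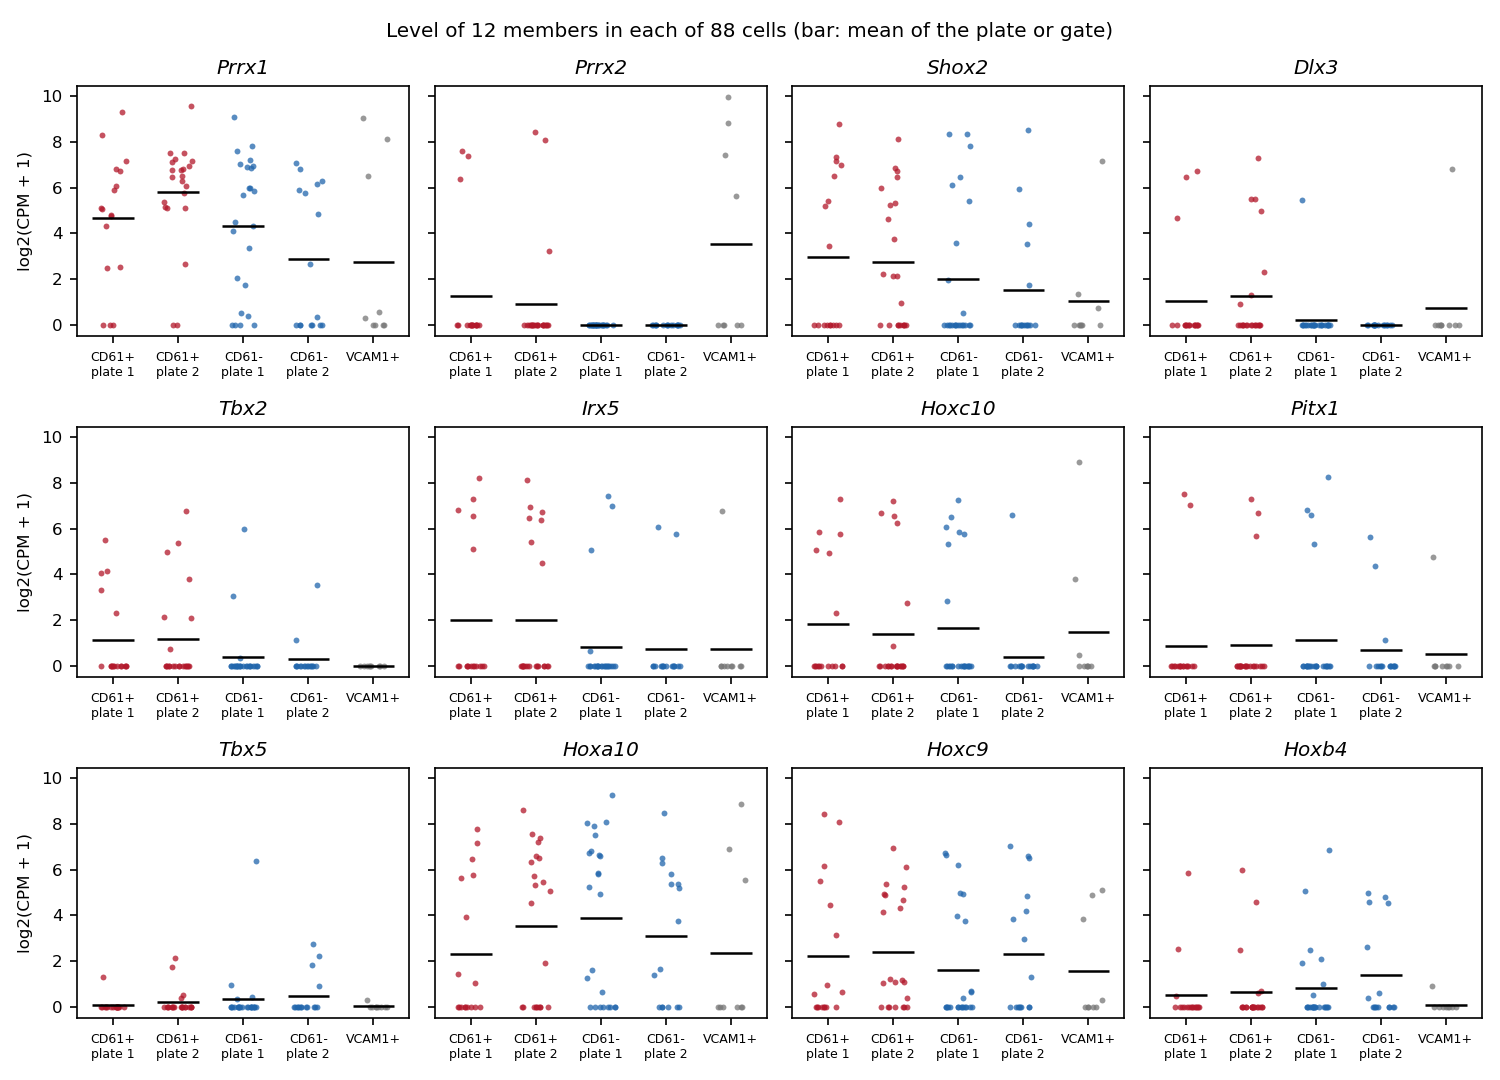
Level of 12 members, as log2(CPM + 1) on the y axis, in each of the 88 cells, split on the x axis into the CD61+ plates (red), the CD61- plates (blue) and the VCAM1+ gate (grey). Points are cells and bars are means over cells; Prrx2 is at 0 in all 40 CD61- cells, Dlx3 is above 0 in 1 of them, and Prrx1 and Hoxa10 reach high values in every plate.

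Among the TALE cofactors, which help Hox proteins bind DNA, Meis3 had the highest level with 97.3 CPM from 25 cells of the CD61+ gate, 85.6 from 20 of the CD61- gate and 45.2 from 5 of the VCAM1+ gate. Its plates overlapped (112 and 81.6 against 110 and 53.3). Meis1 had 7.48 and 10.7 CPM and Meis2 11.1 and 24.8, a ratio of 0.450 that ran from 0.290 to 0.794 over the cells left out. Pbx2 was counted in 33 cells. Its CD61+ level of 7.85 CPM was 2.55 times the CD61- level of 3.08, but its plates crossed, and leaving out each cell gave ratios from 1.90 to 4.84. None of the cofactor genes separated both pairs of plates (0 of 6).

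Of the T-box genes other than Tbx5, Tbx2 and Tbx6 were past 2-fold, in opposite directions. Tbx2, a transcriptional repressor, had 6.43 and 9.46 CPM in the CD61+ plates, 3.02 and 0.792 in the CD61- plates and 0 in the 9 VCAM1+ cells. The gates stood at 7.92 CPM from 12 cells and 2.07 from 5, a ratio of 3.83 (3.25 to 4.53); 1 cell held 79.5% of the CD61- counts, and without it the ratio was 18.2. In cluster 2, 9 of 16 cells held Tbx2, against 8 of the 72 others. Tbx15 had 28.01 and 25.8 CPM with overlapping plates and 1.06 CPM in the VCAM1+ gate, where 1 of 9 cells held it. Tbx18 was counted in 18 cells at a median of 2.51 CPM. Tbx6 had 0.261 CPM in CD61+ and 5.55 in CD61-, from 2 and 3 cells.

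Among the remaining homeobox genes, Irx3, a member of the Iroquois family, was in most cells. It was counted in 26 CD61+, 26 CD61- and 3 VCAM1+ cells with 65.9, 80.9 and 5.70 CPM. Its relative Irx5 had higher levels in CD61+, with 39.99 and 33.3 CPM in CD61+ and 16.3 and 9.89 in CD61-, a ratio of 2.71 (2.54 to 2.90) from 12 and 6 cells that stayed between 2.07 and 4.24 when each cell was left out. Six2 had 82 counts in CD61+ and 8 in CD61-, and 74.4% of the former came from 1 cell. Six4 was counted in 35 cells, in 8 of them at 5 counts or more. Lhx5, Lhx6 and Lhx9 together reached 5 counts in few cells (0, 1 and 1).

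Members were also compared between cluster 2, the osteolineage-like cluster with most CD61+ cells, and all other cells. The share of cells with a count was at least 30 percentage points higher in cluster 2 than in all other cells for 4 of the 59 members tested there (6.78%), against 8.69% of all genes, and at least 30 points lower for 0, against 1.83%; these shares are near the background and are not a result about the members. The 4 were Dlx3 (11 of 16 against 1 of 72), Shox2 (14 of 16 against 24 of 72), Tbx2 (9 of 16 against 8 of 72) and Dlx4 (6 of 16 against 5 of 72). The summed level of Dlx3 was 45.0 CPM in cluster 2 and 0.920 in all other cells, and that of Shox2 70.8 and 29.0. Since 13 of the 16 cells are CD61+, gate and cluster overlap. Cluster 2 also had the highest median number of genes per cell, 6650.5 against 3840 to 6328 in the other clusters. The part of this in the shares was not tested. Other members kept a similar share in clusters 1, 2, 4 and 5: Prrx1 was counted in 23 of 28, 13 of 16, 11 of 11 and 8 of 11 cells, and Irx3 in 20, 11, 10 and 9. In the shallow cluster 3, Prrx1 was counted in 10 of 13 cells, but Irx3 in 3, Meis3 in 2 and Hoxa7 in 0. The median number of Hox genes per cell was 7.5, 7.5, 4, 6, 8 and 3 in clusters 1 to 6.

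Cluster 6 held cells of several kinds. Its 4 cells with counts of the endothelial gene Cdh5 held 0 counts of Prrx1, Prrx2 and Twist1 and had 1 to 4 members at 5 counts or more. Its 3 cells with high Dcn, a fibroblast gene, all held Prrx2 and Twist1 and had 14 to 19 members at 5 counts. The 2 cells with the blood gene Laptm5 had 0 and 3. Each kind is named here by 1 gene only. In the other 5 clusters, Prrx1 was counted in 65 of 79 cells and Twist1 in 31. Without the 9 cells of cluster 6, 13 of 59 members were at least 2-fold higher and 12 at least 2-fold lower in CD61+, against 20.1% and 17.5% of all genes; 11 and 12 separated both plates, against 20.4% and 18.2%.

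**Figure D5:**
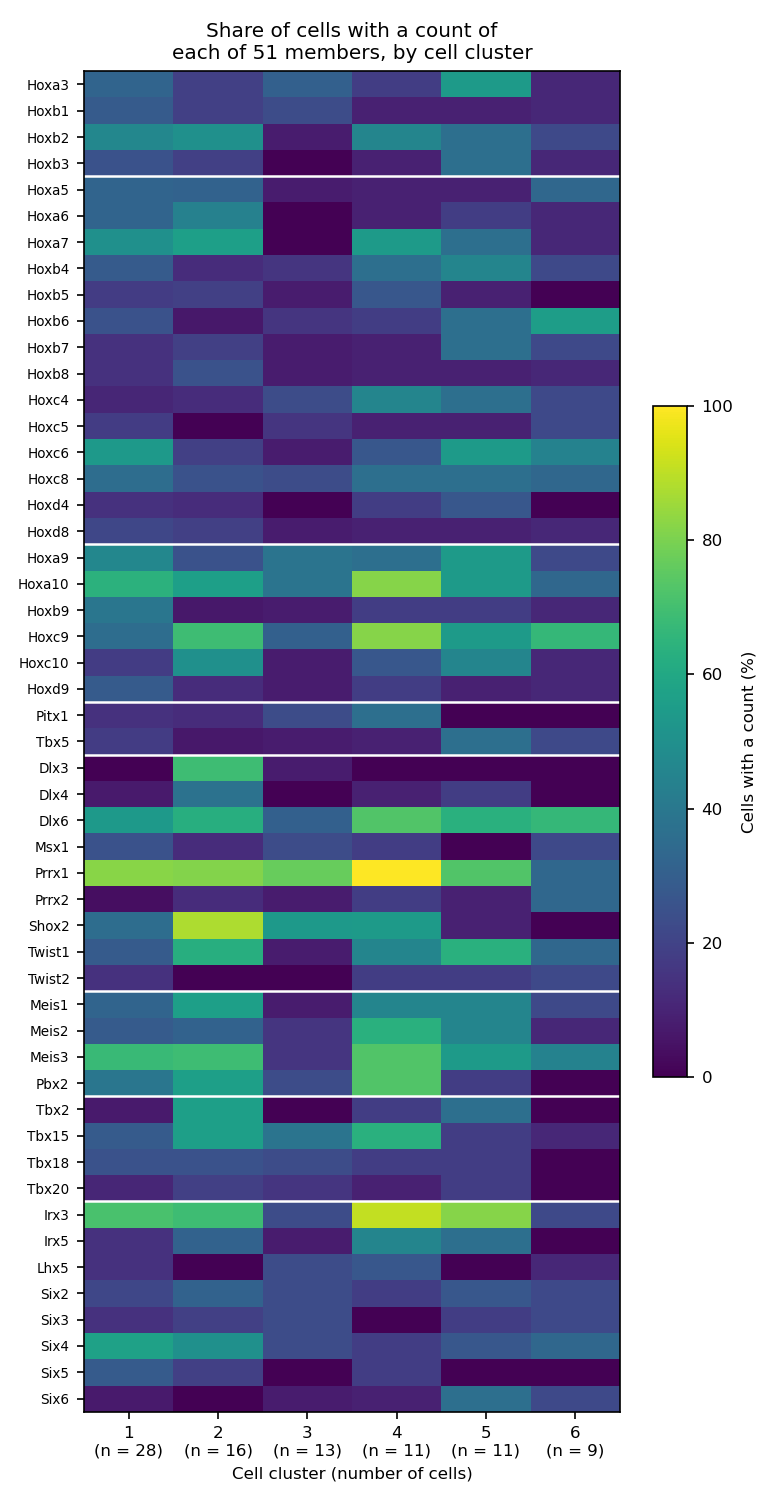
Share of cells with a count (colour, %) of 51 members (y axis, grouped by role between white lines) in the 6 cell clusters (x axis, with the number of cells). Dlx3 is bright in cluster 2 (68.8%) and dark elsewhere, Prrx1 is bright in clusters 1 to 5, and Shox2 is at 0 in cluster 6.

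The sort record gives surface protein values for the same cells. Over the 88 cells, the level of Dlx3 had a Spearman rho of 0.55 with the CD200 intensity (0.61 within CD61+ and 0.26 within CD61-), and Tbx2 one of 0.46 (0.38 and 0.44). These were the highest of the 53 members, whose median was 0.09 and whose lowest value was -0.22 (Msx1). With CD51 intensity the highest was 0.33 (Hoxb7), and with forward scatter, a measure of cell size, 0.41 (Dlx3). With total counts the 53 values ran from -0.15 to 0.27. Most cells are at 0 for these genes, so such values describe where a few cells lie.

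Other genes of the same kind were listed for comparison. Of 40 other homeobox and patterning genes in the table, 35 were tested, 11 (31.4%) were at least 2-fold higher in CD61+, against 19.4% of all genes, and 8 (22.9%) at least 2-fold lower, against 17.3%. Both plates were higher for 7 and lower for 7 (20% each, against 20.0% and 17.8%), with a median log2 ratio of -0.07 against 0.01. Dlx5, the partner of Dlx6, had 204 and 197 CPM. Pax9 had 3.13 and 16.4 CPM, and Meox1 2.32 and 44.7 from 1 and 7 cells. The plates of Meox1 crossed, at 4.56 and 0 CPM in CD61+ and 76.2 and 2.27 in CD61-. Meox2 went the other way, at 6.32 and 0 CPM from 5 and 0 cells. Of 19 chromatin regulators of Hox genes, 3 (15.8%) were at least 2-fold higher (Phc1, Phc2, Cbx8) and 5 (26.3%) at least 2-fold lower (Ezh2, Eed, Suz12, Jarid2, Cbx7), against the same 19.4% and 17.3%. In both plates 4 (21.1%) were higher and 8 (42.1%) lower, against 20.0% and 17.8%, and the median log2 ratio was -0.38 against 0.01. Ezh2, the methyltransferase of Polycomb complex 2, had 32.0 and 25.3 CPM in the CD61+ plates and 80.2 and 75.3 in the CD61- plates.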

How the data were processed

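The authors deposited 1 table of expected counts for 91 cells and 16580 genes, made with kallisto 0.43.0 and R 3.5.1 on mm10 per the submitters' processing notes with an annotation not given in the sources used here. Deposited values are not normalised, 0 were not whole, and none were rounded. The authors also deposited reads and genes per cell as counts, and index-sort channels as intensity values on a linear scale; forward scatter, CD200 and CD51 were used, and 44 other columns were not. Cells were grouped by the gate in the labels; 3 with conflicting labels were left out. No cell was removed for quality and no doublet caller was run. Results of some members and sequences are not reported here; counts over all members include them.

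The members and lists were chosen with earlier results of these data known. Counts were summed per gate and plate and scaled to CPM. A ratio needed 10 counts and a count in 5 of 79 cells; a sum under 3 counts was raised to 3. Sums have exact Poisson, ratios exact binomial and shares Clopper-Pearson intervals, at 95%. A gene was named if counted in at least 10% of the 88 cells, or if it was Pitx1 or Tbx5. A set of 200 simulated 4-fold changes among 16580 genes in CD61+ against CD61- cells was recovered in 200 of 200. Changes of 4-fold lie past the cut of 2-fold, so this checks the computation only and not how reliable the calls are.

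For clustering, the 2000 genes of highest variance other than the members were taken as log2(CPM + 1) (15 principal components, 10 neighbours, Leiden resolution 1). Clusters were named from marker lists of which at least 3 genes had a count in 50% of cells; the same markers took part in the clustering, so they describe it. Homeoboxes, exon lengths and shared 31-base words came from GENCODE vM21 on GRCm38. Alternatives were TMM (edgeR 4.0.16) and DESeq2 1.42.0 scaling in R 4.3.3, mean CPM over cells, no filter, 5 counts or 10 CPM as the limit for a positive cell, thinning to 942845 counts (leaving out 6 CD61+ and 2 CD61- cells), each plate or cell left out, other clusterings, and, chosen after seeing the data, leaving out cluster 6. Tools were scanpy 1.11.5, igraph 0.11.9, scipy 1.17.1, pandas 2.3.3, numpy 2.4.6, Python 3.11.15 and matplotlib 3.10.9.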

Additional observations from a re-analysis of the deposited data

Results flagged for a closer look

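In the VCAM1+ gate, 1 of 9 cells stood far above the others in Prrx2, at 988 CPM; the next cell had 457 CPM and 5 cells had 0. The gap was larger than a rule for outlying values allows. That rule marks about 1 in 20 groups by chance, a rate that may not hold where 5 of 9 values are 0. Relative to the highest cell, the gap was wider for other members in the same 9 cells. Hoxa7 had 437.6 CPM in its highest cell and 4.49 in the next, and Hoxc10 had 476 and 12.9. Prrx2 is therefore not read as exceptional among the members. The cell with 988 CPM is one of the 13 with Pitx1.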

How the results depend on the processing

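Depth and the number of cells limit these results: most members were counted in fewer than 1 in 2 cells, and each gate is 1 sample. No test and no paired analysis was run, because no animal is named. Whether plates of the same number in the 2 CD61 gates share a batch is not given, so plate numbers were not used to pair. The count of members at least 2-fold higher (12) ran from 9 to 15 over plates left out and from 10 to 14 over cells left out, and that of members at least 2-fold lower (12) from 9 to 15 and from 11 to 16. With a plate left out, 52 to 54 members were tested, and the share of all genes ran from 17.2% to 30.6% higher and from 15.0% to 23.7% lower. With mean CPM over cells, 7 members were at least 2-fold lower. Cells with both Pitx1 and Tbx5 numbered 0 at 5 counts and 0 at 10 CPM. Dlx3 was in 38.7% of the cells of the larger osteolineage-like cluster at Leiden resolution 0.6, because that cluster has 31 cells, and in 70.6% at 1.5.

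The log2 ratio of several members turned; where a gate's sum was under 3 counts it was raised to 3, so the value is a bound. Over plates left out, Hoxa2 ran from -4.99 (without CD61+ plate 2) to 6.44, and was -0.22 without CD61- plate 1. Hoxa4 was -0.58 after thinning and ran from -3.66 (without CD61+ plate 1) to 6.89 over plates and cells left out. Hoxb6 ran from -2.30 to 1.12 (without CD61- plate 2). Hoxc5 ran from -3.46 to 0.36 (without CD61- plate 2), and was 0.34 without 1 cell. Hoxb9 was -0.02 without CD61+ plate 1 and ran from -0.97 to 2.04 over cells. Six5 ran from -6.73 to 4.24 (without CD61- plate 1). The cause was not tested beyond the share of counts held by single cells. The other counts, medians and shares given for groups of members stayed within the limits set for a change.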
